A study of Mus musculus with 191 samples.

Results

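Astrocytes are the glial cells that take up transmitter and potassium around synapses, cover blood vessels with their endfeet and supply neurons with metabolites. The 10 genes described here are markers of these cells, chosen by name: Fgfr3, a receptor for fibroblast growth factors; Agt, angiotensinogen, the precursor of the angiotensin peptides; Gpr37l1, an orphan receptor coupled to G proteins; Aldh1l1, a folate enzyme; Acsbg1, an acyl-CoA synthetase of long fatty acids; Plpp3, a phosphatase that degrades bioactive lipids such as lysophosphatidic acid; Gfap, the intermediate filament of the astrocyte skeleton; Aqp4, the water channel of the endfeet; Dtna, the alpha-dystrobrevin of the dystrophin complex that anchors proteins of the endfeet; and Gjb6, the gap junction protein connexin 30. They were found as the probes carrying those symbols in the array annotation. This gave 9 genes with 18 probes, of 10004 genes and 13798 probes with 1 symbol. Symbols were at hand only for the 14667 probes of the authors' processed values, of 25697 on the arrays. Gjb6 had no probe under its symbol among them and is not described further, which does not show that the array lacks one. Of the genes with a probe, 9 with 17 probes were detected in the AMY (amygdala), 9 with 17 in the NAC (nucleus accumbens) and 8 with 15 in the PFC (prefrontal cortex), where Agt was detected on 22 of 48 arrays and was left out.

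The mice were male C57BL/6J aged 10 to 12 weeks. Treated mice went through 4 cycles of chronic intermittent ethanol (CIE) vapor, each of 4 days with 16 h of vapor and 8 h of air a day, after an injection of ethanol at 1.6 g/kg, whereas control mice received saline and breathed air. All mice, controls included, were given pyrazole, an inhibitor of alcohol dehydrogenase, at 1 mmol/kg. Brains were taken at 0, 8 or 120 h after the last exposure, with 8 treated and 8 control mice at each time. Each array held RNA of a micropunch from 1 mouse, and the 3 regions came from the same mice, so results of different regions do not rest on separate animals. The AMY punch combined the basolateral and central nuclei, and the NAC punch the core and shell. In such bulk tissue, fewer astrocytes and less RNA per astrocyte cannot be told apart.

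Levels are given as log2 intensities, quantile normalized within a region. A gene was represented by its brightest probe, and it is called changed at an adjusted p of 0.05 or lower in limma, with Benjamini-Hochberg adjustment over all probes detected on more than 80% of the region's arrays. These were 12588 probes in the AMY, 12659 in the NAC and 12835 in the PFC, and single arrays detected between 12953 and 14833 probes. The striatal list, genes of striatal projection neurons, had a mean level in control mice of 11.29 in the NAC, 9.21 in the AMY and 7.89 in the PFC on a scale shared by the regions, with no overlap between regions. The lists of markers for oligodendrocytes and thalamus, however, also moved with treatment in some groups, and their values are given beside the results they accompany.

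CIE vapor moved few astrocyte markers, by small amounts. Immediately after the last vapor, at 0 h, Agt and Fgfr3 rose and Dtna fell in the NAC, and Dtna fell in the AMY. At 8 h Plpp3 fell in the AMY, Plpp3 and Gpr37l1 fell in the PFC, and Aldh1l1 rose in the NAC. Gfap, Aqp4 and, by its brightest probe, Acsbg1 were not called at any time in any region, and no member was called at 120 h. The number called was 1 of 9 in the AMY at 0 h, where 3.88% of all probes were called, and 1 of 9 at 8 h beside 2.88%. In the NAC it was 3 of 9 at 0 h beside 7.3% and 1 of 9 at 8 h beside 6.94%. In the PFC it was 0 of 8 at 0 h beside 1.48% and 2 of 8 at 8 h beside 5.72%. Counts this small cannot be read as shares above or below the background.

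**Figure D1:**
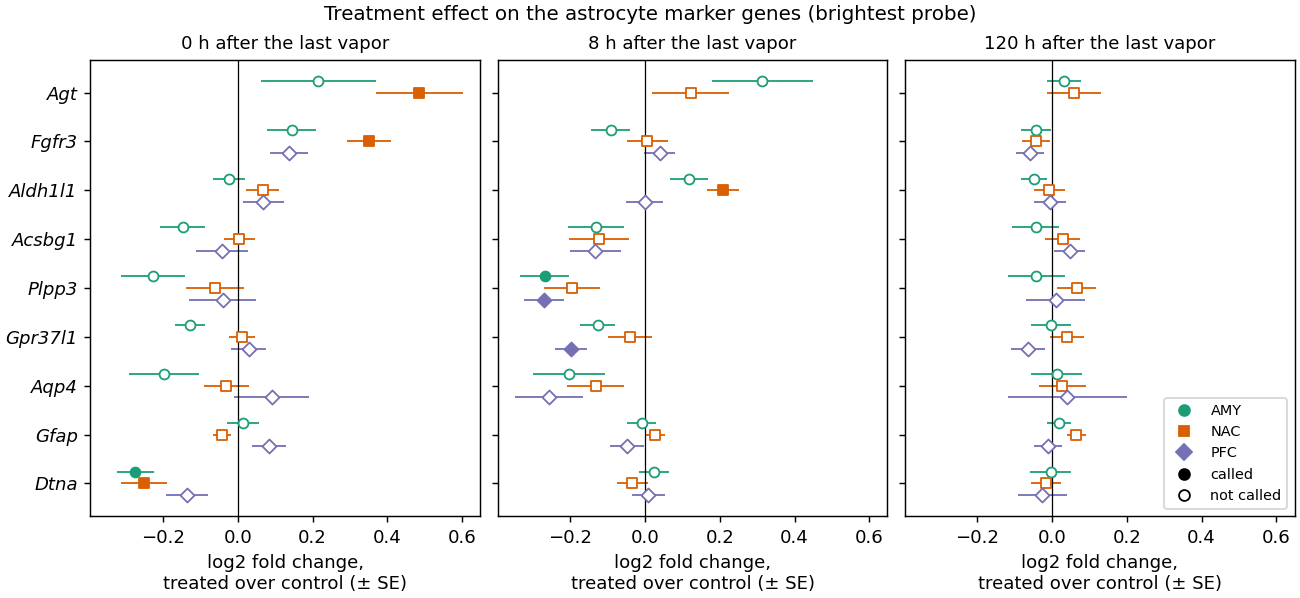
Log2 fold change of treated over control mice (x axis, ± SE, n = 8 and 8) for the brightest probe of each astrocyte marker in the AMY, NAC and PFC, with a panel for 0, 8 and 120 h. Filled symbols passed an adjusted p of 0.05; the largest is Agt in the NAC at 0 h (0.49), and no symbol is filled at 120 h.

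In the NAC at 0 h the arrays of Agt spread widely among treated mice. Control values ran from 6.53 through a median of 6.70 to 6.81, and treated values from 6.58 through 7.22 to 7.62. Of the 8 treated mice, 7 lay above the control median, and the groups overlapped through the 2 lowest treated arrays, at 6.58 and 6.75. The rise was 0.49 ± 0.12 (log2, SE), or 40.0%, with an adjusted p of 0.017. Agt is a dim probe in this region, detected on 45 of 48 arrays, and the size of the change moved with background handling: it was 1.17 after background correction and 0.32 in the authors' processed values, with adjusted p of 0.0194 and 0.0148. In the AMY, where Agt was brighter, treated mice also spread widely at 0 h, from 7.36 to 8.58 against 7.44 to 8.01 in controls, and at 8 h, from 7.24 to 8.40 against 7.19 to 7.68. The differences of 0.22 ± 0.15 and 0.31 ± 0.14 did not pass, with adjusted p of 0.46 and 0.252.

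Fgfr3, which conveys growth factor signals to astrocytes, moved beside Agt. Its control values in the NAC at 0 h ran from 7.68 through 7.76 to 7.84 and its treated values from 7.76 through 8.14 to 8.33, and 7 of 8 treated mice lay above the control median. The rise was 0.35 ± 0.06, or 27.5%, with an adjusted p of 0.00285. The differences at the same time in the other regions had the same sign without passing. They were 0.14 ± 0.06 in the AMY (adjusted p = 0.218) and 0.14 ± 0.05 in the PFC (adjusted p = 0.17), where all 8 treated mice were above the control median. The dimmer probe of Fgfr3 gave 0.06 ± 0.03 in the NAC at 0 h and was not called (adjusted p = 0.268). By 8 h the brighter probe showed 0.01 ± 0.05 in the NAC, with medians of 7.86 in both groups. The effect at 8 h minus that at 0 h, tested in 1 fit of the 6 groups, was -0.34 ± 0.08 (adjusted p = 0.00907), and the dimmer probe gave -0.13 ± 0.04 (adjusted p = 0.0378). For Agt that difference was -0.36 ± 0.15 and was not called (adjusted p = 0.21). Fgfr3 was the only member called in this contrast by its brightest probe, beside 2.46% of all probes.

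**Figure D2:**
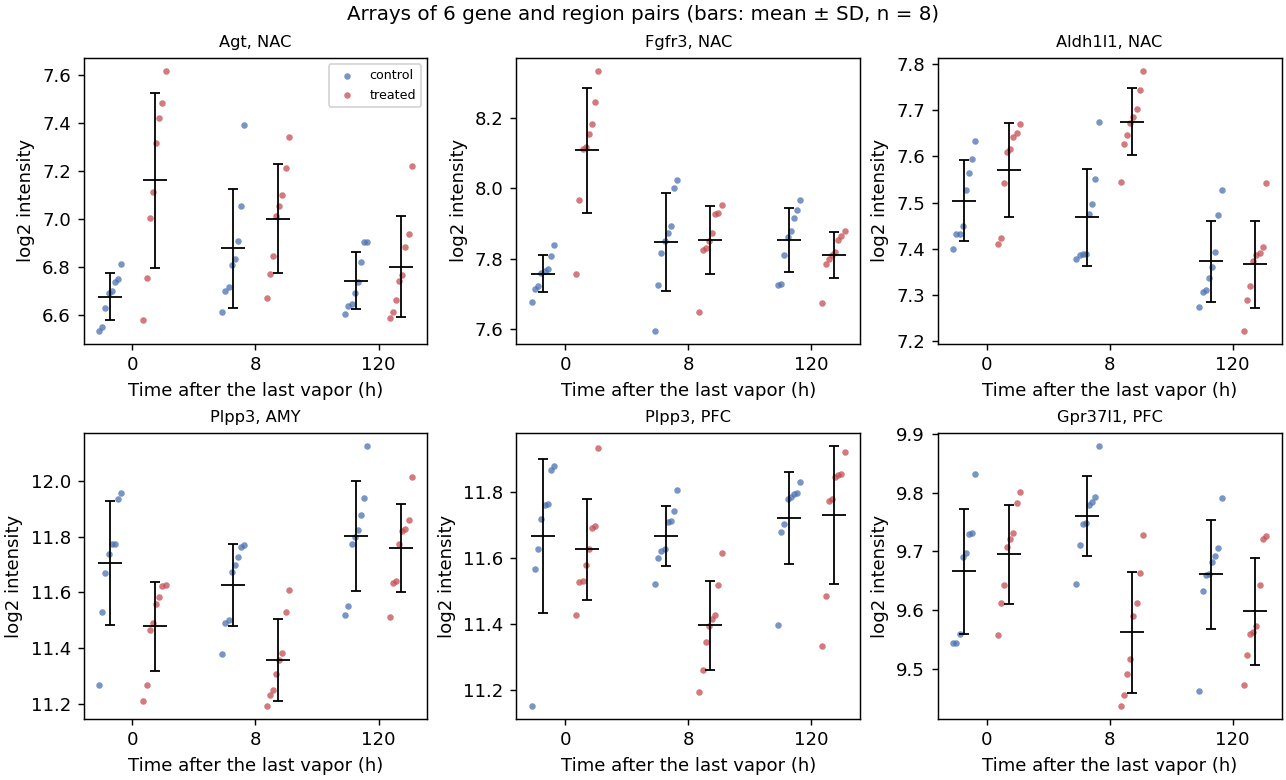
Log2 intensity (y axis) on each array for 6 pairs of gene and region in which a member was called, by time after the last vapor (x axis, h), with control mice in blue and treated mice in red; black bars are mean ± SD of 8 mice. Treated NAC arrays of Agt and Fgfr3 reach 7.62 and 8.33 at 0 h, above the highest control arrays at 6.81 and 7.84, while the lowest treated arrays, at 6.58 and 7.76, lie within the control range.

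Other cells' markers moved in the same NAC arrays. The thalamus list, 8 measured genes known to be high in the thalamus, had a mean between 7.58 and 7.76 in control mice at 0 h and between 7.66 and 8.01 in treated mice. On the scale shared by the regions its control mean was 8.17 in the AMY, 8.14 in the PFC and 7.89 in the NAC. The level of this list thus does not single out thalamic tissue, and what its changes reflect was not tested. Of its genes 3 of 8 were called higher: Slc17a6, the vesicular glutamate transporter VGLUT2, by 0.82, Tcf7l2 by 0.25 and Prkcd by 0.16. Of 11 oligodendrocyte genes 5 were called lower, among them the myelin genes Mag, by -0.29, and Cnp, by -0.24, and the list mean ran from 9.46 to 9.97 in controls and from 9.47 to 9.76 in treated mice. Within the 6 NAC groups, the deviation of Agt from its group mean followed that of the thalamus list with r = 0.86 over 48 arrays, and Fgfr3 with r = 0.50, as a description of arrays that share tissue, RNA and hybridization. When the 2 list means were entered as covariates, an alternative added after these values were seen, the treatment effect was 0.07 ± 0.09 for Agt (adjusted p = 0.89), 0.18 ± 0.06 for Fgfr3 (adjusted p = 0.503) and -0.14 ± 0.09 for Dtna (adjusted p = 0.757). In that fit 0 of all probes were called, against 924 without the covariates. Both covariates differed with treatment, with thalamus means of 7.86 in treated and 7.69 in control mice and oligodendrocyte means of 9.61 and 9.84. The fit therefore cannot separate the treatment effect from the lists, and the loss of calls does not show what moved the members. This limit holds for every covariate fit in which a list mean moved with treatment.

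**Figure D3:**
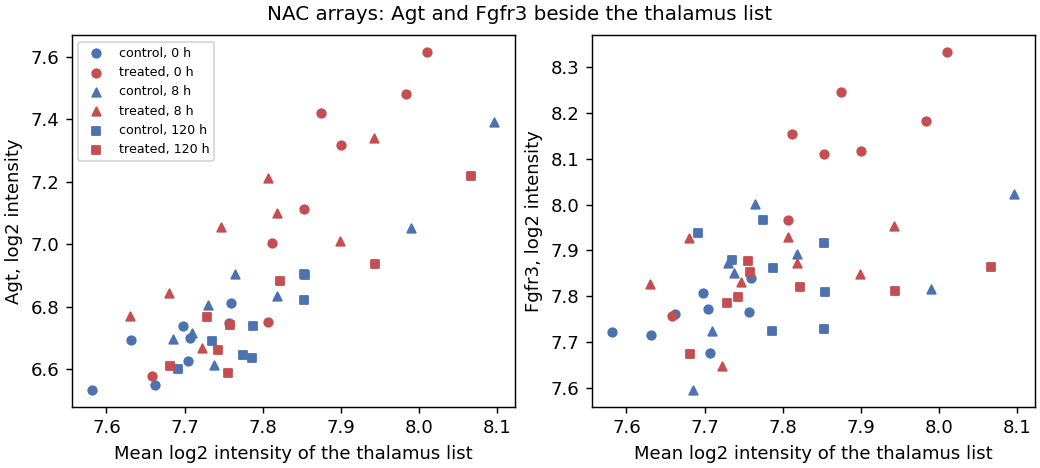
Log2 intensity of Agt (left) and Fgfr3 (right) in each of the 48 NAC arrays (y axis) against the mean log2 intensity of the thalamus list on the same array (x axis), with treatment by color and time by symbol. Agt follows the list mean across groups (r = 0.86 within groups), while 6 of the 8 treated 0 h arrays of Fgfr3 lie between 8.11 and 8.33, above all other arrays.

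The upstream sequences of the pair that rose in the NAC and of the pair that fell in the PFC are printed because both members of a pair were called in the same comparison. Shared regulation of a pair was not tested. They are the 250 bases before the annotated start, in gene orientation, from RefSeq with assembly GRCm38.p6, and for Fgfr3 the first of its annotated starts was used. The table held 8 of the 10 genes, all but Aqp4 and Dtna. Capitals mark matches, on either strand, to TGTTCT (a half-site of the glucocorticoid receptor element), TTCNNNGAA (the STAT motif), TGGCA (a half-site of nuclear factor I) or CACGTG (the E-box of clock factors).
Agt (chr8:124569707-124569956, minus strand): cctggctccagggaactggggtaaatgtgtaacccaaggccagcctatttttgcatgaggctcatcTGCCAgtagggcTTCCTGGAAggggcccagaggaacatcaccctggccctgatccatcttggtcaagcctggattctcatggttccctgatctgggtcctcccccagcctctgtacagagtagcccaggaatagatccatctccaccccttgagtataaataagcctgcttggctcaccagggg
Fgfr3 (chr5:33721474-33721723, plus strand): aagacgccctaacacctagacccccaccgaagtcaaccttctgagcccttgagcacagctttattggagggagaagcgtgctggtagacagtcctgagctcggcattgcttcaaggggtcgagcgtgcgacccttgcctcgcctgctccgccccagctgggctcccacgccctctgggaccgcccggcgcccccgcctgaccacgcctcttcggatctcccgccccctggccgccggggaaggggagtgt
Plpp3 (chr4:105157097-105157346, plus strand): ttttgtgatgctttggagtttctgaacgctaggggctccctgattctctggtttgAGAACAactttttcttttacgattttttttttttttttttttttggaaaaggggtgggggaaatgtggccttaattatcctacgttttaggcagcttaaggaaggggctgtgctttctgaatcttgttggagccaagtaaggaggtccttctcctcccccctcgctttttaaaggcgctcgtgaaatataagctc
Gpr37l1 (chr1:135167682-135167931, minus strand): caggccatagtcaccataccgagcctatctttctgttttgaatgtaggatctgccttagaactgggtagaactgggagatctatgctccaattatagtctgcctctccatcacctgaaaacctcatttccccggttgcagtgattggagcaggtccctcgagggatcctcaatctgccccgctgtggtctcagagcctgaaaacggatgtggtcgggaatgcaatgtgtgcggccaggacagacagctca
Agt held a STAT match starting 172 bases before its start and a TGGCA match at 184 bases. Plpp3 held 1 match to TGTTCT, at 195 bases. No match to the 4 motifs lay in these windows of Fgfr3 and Gpr37l1. Over the 8 genes, 1 held TGTTCT, 2 held TTCNNNGAA, 2 held TGGCA and 0 held CACGTG, whereas among 32851 promoters of the same length the shares were 16.1%, 7.02%, 42.8% and 6.02%. Such matches describe letters only.

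Dtna was lower in treated mice in the AMY and the NAC at 0 h. In the AMY its control values ran from 7.72 through 7.88 to 8.04 and its treated values from 7.51 through 7.60 to 7.72. These groups did not overlap, but the share of all probes without overlap was not counted, here or in any other comparison. Dtna fell by 0.27 ± 0.05, a change of -17.3% (adjusted p = 0.00562), beside 3.88% of probes called. In the NAC control values ran from 7.79 through 8.05 to 8.25 and treated values from 7.56 through 7.80 to 8.03, with all 8 treated mice below the control median, and Dtna fell by 0.25 ± 0.06 (adjusted p = 0.0199). The PFC value was -0.14 ± 0.06 and was not called (adjusted p = 0.214). In the AMY the thalamus list had 2 of 8 genes called lower at 0 h, Tcf7l2 by -0.31 and Zic1 by -0.25, and with the 2 list means as covariates Dtna gave -0.26 ± 0.07 (adjusted p = 0.197), in a fit that called 3 of all probes against 488.

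The 4 probes of Dtna did not move alike. A second probe, ILMN_1221805, had control values in the NAC at 0 h from 7.37 through 7.46 to 7.74 and treated values from 7.12 through 7.25 to 7.35. The groups did not overlap, and the probe fell by 0.25 ± 0.05 (adjusted p = 0.00551). At 8 h it was called in the opposite direction, by 0.18 ± 0.05 in the NAC (adjusted p = 0.0242) and by 0.16 ± 0.04 in the AMY (adjusted p = 0.03), with all 8 treated mice above the control median in both regions. The change of the effect from 0 to 8 h was 0.43 ± 0.06 in the NAC (adjusted p = 3.7e-05) and 0.31 ± 0.06 in the AMY (adjusted p = 0.0036). The brightest probe, ILMN_2724339, lay near the control level at 8 h instead, with 0.03 ± 0.04 in the AMY and -0.03 ± 0.04 in the NAC. In the NAC this probe was itself lower in controls at 8 h than at 0 h, as given below for control mice. Its change of effect was 0.30 ± 0.07 in the AMY, where it was called (adjusted p = 0.034), and 0.22 ± 0.07 in the NAC, where it was not (adjusted p = 0.0975). It was the only member called in the AMY contrast by its brightest probe, beside 0.524% of all probes. Another probe, ILMN_1222187, was called lower in the NAC at 8 h, by -0.15 ± 0.04 (adjusted p = 0.0189), and ILMN_2625949 was called nowhere. Dtna is known to make several transcript forms, and which of them each probe reads is not given in the sources used here.

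**Figure D4:**
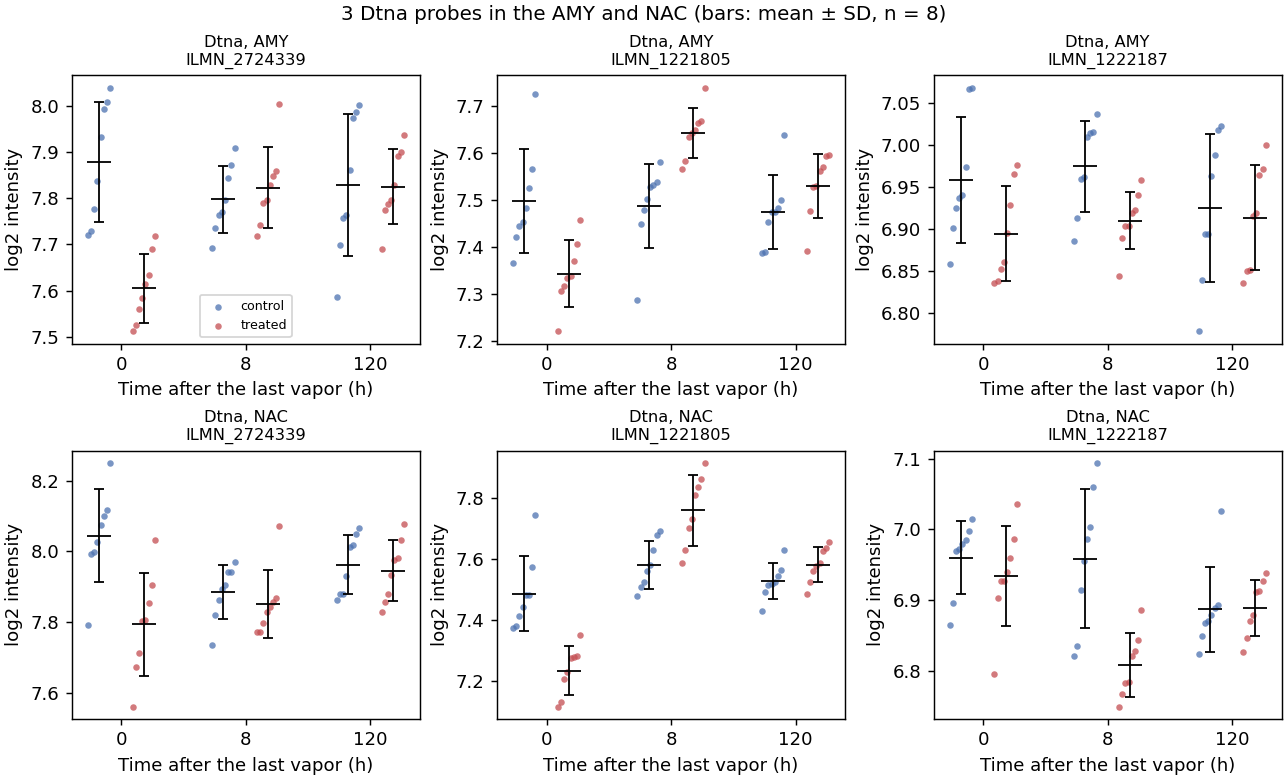
Log2 intensity (y axis) of 3 Dtna probes on each array of the AMY (top) and NAC (bottom) by time after the last vapor (x axis, h), control mice in blue and treated mice in red, with black bars for mean ± SD of 8 mice. At 0 h treated mice lie low for ILMN_2724339 and ILMN_1221805 (medians 7.60 and 7.34 in the AMY, against 7.88 and 7.47). At 8 h they lie high for ILMN_1221805 in both regions and low for ILMN_1222187 in the NAC, the region where that probe was called.

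Plpp3, an enzyme of lipid signalling, was lower in treated mice at 8 h. In the PFC its control values ran from 11.52 through 11.67 to 11.81 and its treated values from 11.20 through 11.40 to 11.62, so that every treated mouse was below the control median. Plpp3 fell by 0.27 ± 0.05, a change of -17.1% (adjusted p = 0.00686). In the AMY control values ran from 11.38 through 11.69 to 11.77 and treated values from 11.19 through 11.33 to 11.61, a fall of 0.27 ± 0.07 (adjusted p = 0.0313). This AMY call was near the limit. It was lost in 9 of 16 fits that each left out 1 array, where the adjusted p reached 0.0666, with median scaling (0.0746), without the detection filter (0.061) and with the 6 groups in 1 fit (0.0536). In the NAC the difference was -0.19 ± 0.08, with 7 of 8 treated mice below the control median, and it was not called (adjusted p = 0.132). At 0 h the AMY value was -0.23 ± 0.09 (adjusted p = 0.141), and leaving out the lowest control array made it -0.29 ± 0.07 (adjusted p = 0.0226). The PFC and NAC values at 0 h were -0.04 ± 0.09 and -0.06 ± 0.08. The dimmer Plpp3 probe was not called in any region at any time. In the AMY at 8 h the oligodendrocyte list had 2 of 11 genes called lower and the thalamus list 1 of 8 higher, and with both list means as covariates Plpp3 gave -0.27 ± 0.07 (adjusted p = 0.0305).

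Gpr37l1 fell beside Plpp3 in the PFC at 8 h. Control values ran from 9.64 through 9.76 to 9.88 and treated values from 9.44 through 9.55 to 9.73, with every treated mouse below the control median, and Gpr37l1 fell by 0.20 ± 0.04, a change of -12.8% (adjusted p = 0.0107). At 0 h the same region showed 0.03 ± 0.05, and the change of the effect between the times was -0.23 ± 0.06 (adjusted p = 0.0339). Gpr37l1 was the only member called in that PFC contrast, beside 3.83% of all probes, and the call was lost with median scaling and without the detection filter. In the AMY Gpr37l1 gave -0.13 ± 0.04 at 0 h (adjusted p = 0.0784), with all 8 treated mice below the control median, and -0.13 ± 0.05 at 8 h (adjusted p = 0.17). In the PFC at 8 h the oligodendrocyte list had 1 of 10 genes called lower, Opalin by -0.41, and the thalamus list none, with list means of 8.67 to 9.01 against 8.82 to 9.02 and of 8.15 to 8.36 against 8.22 to 8.47 in treated and control mice. With both means as covariates Plpp3 gave -0.18 ± 0.05 (adjusted p = 0.116) and Gpr37l1 -0.14 ± 0.05 (adjusted p = 0.179), in a fit that called 123 of all probes against 734. No covariate fit was made for the change of the effect. At 0 h the thalamus list mean ran from 8.23 to 8.55 in treated and from 8.13 to 8.30 in control mice. Within PFC groups, r of Gpr37l1 was 0.41 with the thalamus list, 0.61 with meninges and choroid plexus and 0.06 with oligodendrocytes. For Plpp3 these were 0.64, 0.57 and -0.10. Their part was not tested.

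Acsbg1, which activates fatty acids for metabolism, was called only by its second probe. This probe, ILMN_2686611, fell by 0.23 ± 0.04 in the AMY at 0 h (adjusted p = 0.0047), where treated and control arrays did not overlap, and by 0.20 ± 0.05 in the PFC at 8 h (adjusted p = 0.0174). The brightest probe gave -0.15 ± 0.06 (adjusted p = 0.181) and -0.13 ± 0.07 (adjusted p = 0.285) in those comparisons, the same sign with a wider spread. Aqp4 did not pass at 8 h in any region. Its differences were -0.20 ± 0.10 in the AMY (adjusted p = 0.308), -0.13 ± 0.08 in the NAC (adjusted p = 0.328) and -0.26 ± 0.09 in the PFC (adjusted p = 0.109). In the PFC control values of Aqp4 at 8 h ran from 9.15 through 9.39 to 9.80 and treated values from 8.84 through 9.15 to 9.39, with 7 of 8 treated mice below the control median.

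Aldh1l1, a folate enzyme used as a general astrocyte marker, was the 1 member that rose at 8 h by its brightest probe. In the NAC its control values ran from 7.38 through 7.43 to 7.68 and its treated values from 7.55 through 7.68 to 7.79, and all 8 treated mice were above the control median. The rise was 0.21 ± 0.04, or 15.5% (adjusted p = 0.00628). A second probe, ILMN_3100276, was called as well at 0.13 ± 0.04 (adjusted p = 0.0445), and ILMN_2703392 gave 0.14 ± 0.05 (adjusted p = 0.0777). In the AMY the 3 detected probes gave 0.12 ± 0.05, 0.16 ± 0.04 and 0.15 ± 0.05, of which ILMN_2703392 was called (adjusted p = 0.048) and the brightest was not (adjusted p = 0.246). In the PFC the brightest probe gave 0.00 ± 0.05. The oligodendrocyte list of the NAC had 4 of 11 genes called higher at 8 h, among them Mobp by 0.48 and Cldn11 by 0.35, with means of 9.59 to 9.91 in treated and 9.36 to 9.91 in control mice. Aldh1l1 stayed called with both list means as covariates, at 0.21 ± 0.04 (adjusted p = 0.01).

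Gfap, whose rise marks reactive astrocytes, did not pass under treatment anywhere. Its probe was dim, with a median raw intensity of 112 in the AMY, 97.3 in the NAC and 131 in the PFC, and it was detected on 46, 40 and 48 of 48 arrays. The treated-control differences lay between -0.05 and 0.08 over the 3 regions and 3 times. At 0 h the 95% intervals were -0.08 to 0.11 in the AMY, -0.09 to 0.01 in the NAC and -0.01 to 0.18 in the PFC on the log2 scale. Of the reactive astrocyte genes, 10 were measured in the AMY, 11 in the NAC and 13 in the PFC. The only one called under treatment was Hspb1, a small heat shock protein, lower by -0.16 in the AMY at 0 h. Serpina3n, a protease inhibitor that marks reactive astrocytes, gave 0.11 in the AMY, 0.24 in the NAC and 0.08 in the PFC at 0 h (adjusted p of 0.569, 0.183 and 0.815), and Vim, an intermediate filament, gave 0.02, 0.07 and 0.20 (adjusted p of 0.847, 0.354 and 0.138).

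At 120 h no member passed, beside 0% of all probes called in each region. At an unadjusted p of 0.05 there were 0 members in the AMY, 1 in the NAC and 0 in the PFC, and the 10 alternatives run on each region also gave 0 calls. That 1 was Gfap in the NAC, where all 8 treated mice lay above the control median, with values of 6.61 to 6.70 against 6.52 to 6.66. Its difference of 0.07 ± 0.02 had an adjusted p of 0.999, and it was 0.01 in the authors' processed values. For the members called at 0 or 8 h the 120 h values were small: 0.06 ± 0.07 for Agt, -0.04 ± 0.04 for Fgfr3 and -0.02 ± 0.04 for Dtna in the NAC, and 0.01 ± 0.08 for Plpp3 in the PFC. In the PFC at 0 h, where limma also called no member, 2 of 8 had an unadjusted p of 0.05 or lower.

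A call in 1 region and not in another does not show that the regions differ. In 1 fit of all brain arrays, the region difference of the treatment effect was called for 0 of 9 members in every pair of regions at 0 and 8 h. At an unadjusted p of 0.05 there were 1, 1 and 3 members at 0 h and 0, 1 and 2 at 8 h, for AMY against NAC, AMY against PFC and NAC against PFC. All probes were called at shares of 0.317%, 0.384% and 0.73% at 0 h and of 0%, 0.111% and 0.479% at 8 h. Between NAC and PFC, Fgfr3 differed by 0.21 ± 0.07 at 0 h (adjusted p = 0.174) and Aldh1l1 by 0.21 ± 0.07 at 8 h (adjusted p = 0.148). The 9 members include Agt, whose PFC values rest on a probe that failed that region's detection filter, and Agt is among those counted at an unadjusted p of 0.05 for NAC against PFC at 0 h and for AMY against PFC at 8 h.

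The control mice themselves changed between the times. In the NAC, controls at 8 h had higher Acsbg1, by 0.23 ± 0.06 (adjusted p = 0.011), and Gpr37l1, by 0.15 ± 0.05 (adjusted p = 0.0432), and lower Dtna, by -0.16 ± 0.05 (adjusted p = 0.0327), than at 0 h, which is 3 of 9 members beside 13.1% of probes. Of the 5 alternatives run, the call of Gpr37l1 was lost with background correction (adjusted p = 0.0548), without the detection filter (adjusted p = 0.0802) and in a fit of control arrays only (adjusted p = 0.0708), and that of Dtna without the filter (adjusted p = 0.0605). Other cells' markers differed between the same control groups: 9 of 11 oligodendrocyte genes were lower, with a median of -0.29, 3 of 7 striatal projection neuron genes were lower, 4 of 10 neuron genes were higher, and of 8 thalamus genes 2 were higher and 1 lower. The mean of the oligodendrocyte list ran from 9.46 to 9.97 at 0 h and from 9.36 to 9.91 at 8 h, and that of the thalamus list from 7.58 to 7.76 and from 7.69 to 8.10. Their part in the result was not tested. At 120 h against 0 h, Aldh1l1 was lower in the AMY, by -0.22 ± 0.04 (adjusted p = 0.000585), and in the PFC, by -0.17 ± 0.05 (adjusted p = 0.0126), and gave -0.13 ± 0.05 in the NAC (adjusted p = 0.0642). Gfap was also lower in the AMY, by -0.12 ± 0.04 (adjusted p = 0.0328), and Dtna in the PFC, by -0.18 ± 0.06 (adjusted p = 0.0263). The call of Gfap was lost with median scaling (adjusted p = 0.174), without the filter (adjusted p = 0.0534) and in the authors' processed values (adjusted p = 0.0562). Agt gave -0.29 in the AMY and was not called (adjusted p = 0.148), but it was called in a fit of control arrays only (adjusted p = 0.00467). In the AMY 2 of 11 oligodendrocyte genes and 1 of 8 thalamus genes were lower and 4 of 14 microglia genes higher. In the PFC 1 of 10 oligodendrocyte genes was higher and 2 lower, 4 of 8 thalamus genes were higher and 1 lower, and 3 of 14 microglia genes were higher. Their part was not tested either. The members called were 2 of 9 members in the AMY beside 10.9% of probes, 0 of 9 in the NAC beside 6.87% and 2 of 8 in the PFC beside 21.5%. At 8 against 0 h, limma called 0 members in the AMY and PFC, beside 9.14% and 1.65%, with 0 and 2 at an unadjusted p of 0.05, and at 120 against 0 h it called none in the NAC, with 3. These shifts were as large as several treatment effects, so each treated group was read only against its own controls. Mice of different times were different animals.

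Aqp4 and Agt differed between regions by more than any member differed with treatment. In the 72 control arrays on the shared scale, Aqp4 was highest in the PFC at 9.18 ± 0.22 (SD, n = 24), lower in the AMY at 8.31 ± 0.23 and lowest in the NAC at 7.93 ± 0.16. The PFC arrays, from 8.75 to 9.65, did not overlap the NAC arrays, from 7.61 to 8.23, and Aqp4 was 0.87 ± 0.06 lower on the log2 scale in the AMY and 1.25 ± 0.06 lower in the NAC than in the PFC. Agt was at 7.55 ± 0.19 in the AMY and 6.87 ± 0.19 in the NAC, a difference of 0.69 ± 0.06 that was 1.54 ± 0.13 with background correction. In the PFC 22 of 48 arrays detected its probe, which failed that region's filter, so no difference from the PFC is read for Agt. Fgfr3 was lower in the PFC, at 7.73 ± 0.10, than in the AMY, at 7.98 ± 0.09, and the NAC, at 7.94 ± 0.11, whose difference did not pass (0.03, 95% interval -0.03 to 0.09). Dtna was highest in the NAC at 8.08 ± 0.11, and its AMY and PFC levels of 7.86 ± 0.12 and 7.89 ± 0.12 did not pass (-0.03, 95% interval -0.09 to 0.04). Gfap followed the order PFC, AMY and NAC, at 6.89, 6.84 and 6.70. The remaining genes differed by 0.12 ± 0.05 at most, the value of Plpp3 between AMY and PFC: Gpr37l1 at 9.66, 9.65 and 9.55, Plpp3 at 11.70, 11.60 and 11.58, Acsbg1 at 8.67, 8.64 and 8.74, and Aldh1l1 at 7.66, 7.57 and 7.63 in the AMY, NAC and PFC. Members called were 5 of 9 for AMY against NAC, 6 of 9 for AMY against PFC and 8 of 9 for NAC against PFC, beside 68%, 76.6% and 83% of all probes. The counts against the PFC include Agt.

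**Figure D5:**
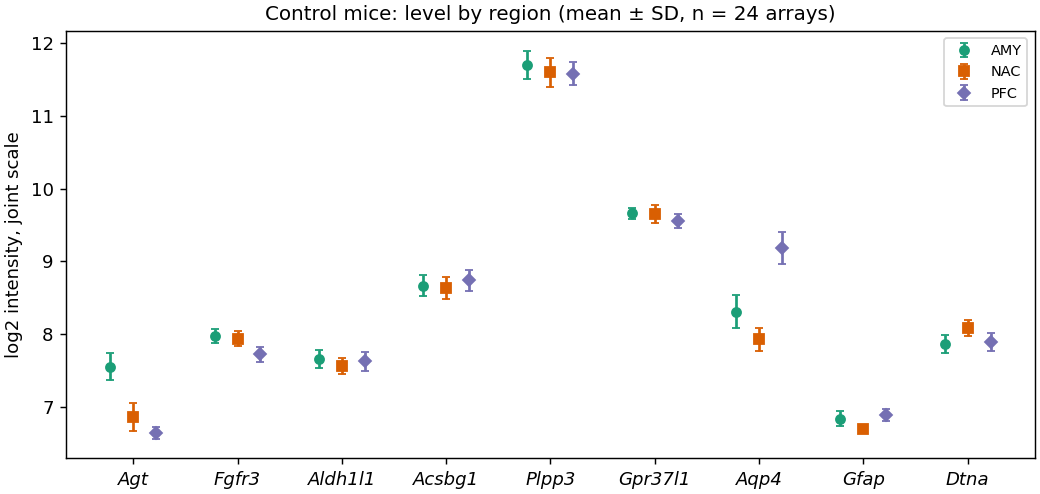
Mean log2 intensity ± SD (y axis, scale shared by the regions) of the brightest probe of each astrocyte marker (x axis) in 24 control arrays of the AMY, NAC and PFC. Aqp4 separates the PFC (9.18) from the AMY (8.31) and NAC (7.93), and Agt has its highest mean in the AMY (7.55), where its arrays overlap those of the NAC (6.87), and failed the detection filter in the PFC; levels of different genes are not comparable, since each rests on its own probe.

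Within groups the members did not vary as 1 unit. Over 48 arrays of a region, the deviations of 2 members from their group means had a median r of 0.05 in the AMY over 36 pairs, 0.16 in the NAC over 36 and 0.12 in the PFC over 28. Aqp4 and Plpp3 were the pair that ran most closely together, with r = 0.80 in the AMY, 0.66 in the NAC and 0.76 in the PFC. Agt and Fgfr3, the pair that rose in the NAC, had r = 0.65 there and 0.48 in the AMY. Plpp3 and Gpr37l1, the pair that fell in the PFC, had r = 0.43 there, 0.07 in the NAC and -0.20 in the AMY. These values describe arrays that share punches, RNA and hybridization, and no test was made of them.

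A wider list of 48 other astrocyte genes, of which 39 had a probe with a symbol at hand, showed a similar mixture. At 0 h the AMY had 3 of 39 lower and 0 higher: Hes5, a target of Notch signalling, by -0.34, Tril, a partner of toll-like receptors, by -0.26 and Slc14a1, a urea transporter, by -0.11. The NAC at that time had 4 of 38 higher and 0 lower: Slc27a1, a fatty acid transporter, by 0.20, Ednrb, an endothelin receptor, by 0.26, Slc6a11, the GABA transporter GAT-3, by 0.30, and Htra1, a secreted protease, by 0.36. The PFC had 2 of 37 higher, Clu by 0.24 and Htra1 by 0.37. At 8 h Hes5 was lower in all 3 regions, by -0.52 in the AMY (adjusted p = 7.17e-07), -0.46 in the NAC (adjusted p = 4.77e-05) and -0.22 in the PFC (adjusted p = 0.00345). Htra1 was higher in all 3, by 0.45, 0.50 and 0.33. Slc25a18, a mitochondrial glutamate carrier, was lower in the AMY by -0.23 and in the PFC by -0.22, and Slc1a2, the main glial glutamate transporter, was higher in the NAC by 0.23. In total 1 gene was higher and 3 lower of 39 in the AMY at 8 h, 2 and 1 of 38 in the NAC, and 1 and 5 of 37 in the PFC. Of all probes, 3.88% were called in the AMY, 7.3% in the NAC and 1.48% in the PFC at 0 h. At 8 h these shares were 2.88%, 6.94% and 5.72%. Whether the list was called more often than all probes was not tested. At 0 h the median over the list was 0.00 in the AMY, 0.07 in the NAC and 0.09 in the PFC, and at 8 h it was 0.01, -0.01 and -0.04 in the AMY, NAC and PFC, against 0.00 for all probes. The 8 minus 0 h difference of the effect was negative for 34 of 37 genes in the PFC, with a median of -0.11, and 4 were called, all lower: Cldn10, a claudin, by -0.30, Slc25a18 by -0.28, Ntsr2, a neurotensin receptor, by -0.36, and Slc1a3, the glial glutamate transporter GLAST, by -0.34. In the NAC 30 of 38 were negative, with a median of -0.06, and the gene called, Slc1a2, had a positive difference of 0.30. In the AMY 17 of 39 were negative and 0 were called in limma, with 5 at an unadjusted p of 0.05. All probes were called at 3.83% in the PFC, 2.46% in the NAC and 0.524% in the AMY for this difference. How many of all probes had a negative difference was not counted. Means of the thalamus list in the PFC were 8.34 in treated and 8.20 in control mice at 0 h, then 8.24 and 8.33 at 8 h. For the meninges and choroid plexus list they were 8.59 and 8.47, then 8.37 and 8.49. The neuron means were 11.34 and 11.42, then 11.43 and 11.43. Those of striatal projection neurons were 8.23 and 8.30, then 8.32 and 8.22. The glucocorticoid-induced means were 8.96 and 8.70, then 8.90 and 8.52, higher in treated mice at both times. For oligodendrocytes they were 8.95 and 8.91, then 8.82 and 8.94. The microglia means were 8.13 and 8.09, then 8.08 and 8.14. Their part was not tested. None of the list was called at 120 h, with 0, 3 and 4 genes at an unadjusted p of 0.05 in the AMY, NAC and PFC.

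In the liver of the same experiment, outside the brain regions, 5 of the genes were detected. At 8 h limma called 2 of 5, beside 30.9% of probes. Fgfr3 had control values from 6.90 through 6.93 to 7.11 and treated values from 6.77 through 6.81 to 6.88, with no overlap, and Plpp3, lower in the AMY and PFC at that time, had control values from 10.70 through 10.90 to 11.02 and treated values from 10.70 through 11.17 to 11.58. At 0 h it called 0 of 5 beside 20.4% of probes and at 120 h 0 of 5 beside 0%, with 0 at an unadjusted p of 0.05 at both times. The liver controls at 0 h were 7 samples.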

How the data were processed

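RNA of brain punches (48 arrays from each region) and 47 liver samples was hybridized by the authors to Illumina MouseRef-8 v2 arrays. The 3 brain tables and 1 liver table hold, per the file headers, raw probe intensity values that were not normalized, each with the detection p-value deposited for the same probe. The authors' processed values, deposited on a log2 scale, came from a detection filter, variance stabilization and quantile normalization in lumi, with outlying expression values removed by Grubbs' test; they served as an alternative here. The authors' version of lumi is not given in the sources used here.

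Intensities were log2 transformed and quantile normalized within a region. A probe was kept where over 80% of the region's arrays had it at a detection p-value of at most 0.05. Control and treated mice (8 each) were compared at each time with limma 3.58.1 in R 4.3.3, two-sided, with Benjamini-Hochberg adjustment over all kept probes. Effects at 8 h minus 0 h and control mice over time came from 1 fit of the 6 groups of a region. Levels by region and region differences of the effect came from a fit of 18 groups on all brain arrays normalized together (13559 probes). A gene was read from its brightest probe, and its other probes are named where they were called. Symbols came from the platform annotation, which gives 1 symbol for 13798 of 14667 processed probes and none for 869. Probes outside the processed values carried no symbol here, so further probes of a gene may be missing. The scripts were tested on simulated data with known changes.

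The genes and lists (other astrocyte, reactive astrocyte, oligodendrocyte, microglia, neuron, endothelial, thalamus, striatal projection neuron, meninges and choroid plexus, red blood cell and glucocorticoid-induced genes) were chosen with earlier results of these data known. Members were all to be reported, and from each list the called genes were named, at most 4 in each direction in the order of p. Alternatives were background correction, median scaling, no detection filter, detection on all arrays, the authors' values, array weights, 6 groups in 1 fit, any probe of a gene, leaving out each array, mouse as a random block and, chosen after the data were seen, list means as covariates. The number of arrays limits the precision. Replicates are separate mice. Promoters came from RefSeq.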

Additional observations from a re-analysis of the deposited data

Results flagged for a closer look

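Of 156 groups of 8 arrays, 13 held an array of a member gene far from its group, and chance alone flags about 1 in 20 groups. In the control groups these were the lowest Acsbg1 array of the NAC at 0 h (8.31, with the next at 8.39), the lowest Agt array of the AMY at 8 h (7.19, next 7.49), the highest Fgfr3 array of the PFC at 0 h (8.08, next 7.88), the highest Gpr37l1 array of the AMY at 0 h (9.80, next 9.68), and the lowest Plpp3 arrays of the PFC at 0 h (11.15, next 11.57) and at 120 h (11.40, next 11.68). In the treated groups they were the lowest Acsbg1 array of the AMY at 120 h (8.21, next 8.50), the highest Dtna array (8.07, next 7.87) and the lowest Fgfr3 array (7.65, next 7.83) of the NAC at 8 h, the lowest Gfap array (6.51, next 6.58) and Gpr37l1 array (9.34, next 9.45) of the NAC at 0 h, and the lowest Fgfr3 array (7.67, next 7.78) and Plpp3 array (11.53, next 11.65) of the NAC at 120 h. The Dtna and Fgfr3 arrays of the NAC at 8 h came from 1 mouse (mouse 11). Mouse 71 gave those of Acsbg1, Fgfr3 and Plpp3 at 120 h. Mouse 18 gave the Acsbg1 array of the NAC and the Fgfr3 and Plpp3 arrays of the PFC at 0 h.

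The treatment effect differed between 8 and 0 h, by a test of the difference in limma, for Dtna in the AMY (ILMN_1221805, 0.31, and ILMN_2724339, 0.30, log2) and in the NAC (ILMN_1221805, 0.43), for Fgfr3 in the NAC (ILMN_1257208, -0.34, and ILMN_2590766, -0.13) and for Gpr37l1 in the PFC (-0.23).

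In the liver, outside the brain comparisons, Fgfr3 differed by -0.15 (adjusted p = 0.00247) and Plpp3 by 0.26 (adjusted p = 0.0426) between treated and control mice at 8 h, beside 30.9% of probes called.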

How the results depend on the processing

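No result changed its direction. Counts are members called. Entering the oligodendrocyte and thalamus list means as covariates took the AMY at 0 h from 1 to 0, the NAC at 0 h from 3 to 0 and the PFC at 8 h from 2 to 0. In the AMY at 8 h the count of 1 became 0 with median scaling, without the detection filter and with 6 groups in 1 fit, and 3 when any probe of a gene counted. Any probe also gave 2 in place of 1 in the AMY at 0 h and in the NAC at 8 h, and 3 in place of 2 in the PFC at 8 h. Without the detection filter the 8 minus 0 h difference went from 1 to 0 in the AMY and in the PFC, and median scaling gave 0 in the PFC as well. In control mice at 120 against 0 h the AMY count of 2 became 1 (Gfap was lost) with median scaling, without the filter and in the authors' values, and median scaling gave 3 for 0 in the NAC and 4 for 2 in the PFC, where it called 6789 of all probes against 2763. A fit of control arrays only added Agt in the AMY at 120 against 0 h. For control mice at 8 against 0 h the NAC count of 3 became 1 without the filter, where Gpr37l1 and Dtna were lost, and the PFC count of 0 became 1 with median scaling. Median scaling also added Gfap in the NAC, giving 4. Background correction and a fit of control arrays only each lost Gpr37l1 there. The level difference of Gfap between AMY and PFC lost its call in 1 of 3 alternatives. In the liver at 8 h median scaling and no filter each gave 1 in place of 2. The cause of these shifts was not tested.

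Leaving out 1 array at a time gave 1 to 2 in the AMY at 0 h, 0 to 1 in the AMY at 8 h, 3 to 3 in the NAC at 0 h, 1 to 2 in the NAC at 8 h, 0 to 0 in the PFC at 0 h and 2 to 2 in the PFC at 8 h. The added call was Plpp3 both times: -0.29 (adjusted p = 0.0226) in the AMY at 0 h without control mouse 18, and -0.24 (adjusted p = 0.0411) in the NAC at 8 h without treated mouse 41. The columns of the tables that are not normalized carry mouse numbers, so the replicate block was run on the authors' values. It added Plpp3 in the NAC at 8 h (-0.20, adjusted p = 0.0477), giving 2 for 1, and changed no other count of members under treatment. The numbers were not taken to pair samples, since in no region and time were all 8 pairs over a correlation of 0.1: 1 to 5 were, the median reached 0.18 in the AMY at 120 h (other pairs -0.07) and 0.19 in the PFC at 8 h (other pairs -0.06), and at most 2 of 8 pairs correlated best with their own number. With mouse as a random block (consensus correlation 0.09), Plpp3 passed between AMY and NAC (0.10, adjusted p = 0.0372). Slide as a block was not run, since the tables give no slide. Dim probes such as Gfap and Agt in the NAC lie near background, which limits their fold changes.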

Other observations

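The remaining lists gave the following calls under treatment in limma. Beside them, 3.88% of all probes were called in the AMY, 7.3% in the NAC and 1.48% in the PFC at 0 h. At 8 h the shares were 2.88%, 6.94% and 5.72%. Counts of 1 or 2 genes cannot be read as shares above or below these. Of 15 glucocorticoid-induced genes, 12 were higher in the AMY, 12 in the NAC and 10 in the PFC at 8 h, with medians of 0.48, 0.41 and 0.38, and 0 were called at 0 h, with 7, 5 and 7 at an unadjusted p of 0.05. Within groups, Agt followed the mean of this list in the AMY with r = 0.78 over 48 arrays, but with r = 0.29 in the NAC, where Agt was called. Dtna ran against it in the NAC with r = -0.61, but gave r = 0.03 in the AMY. Agt in the AMY also followed the meninges and choroid plexus list (r = 0.66) and the endothelial list (r = 0.57). These values were not tested. Both measured red blood cell genes were lower at 0 and 8 h in the AMY and NAC, Hba-a1 by -1.12 in both regions at 0 h. In the PFC 3 of 3 were lower at 8 h. Of 14 microglia genes, 3 were higher and 1 lower in the AMY at 8 h, 4 and 1 in the NAC, and 0 and 1 in the PFC, and 1 was lower in each region at 0 h. Of 7 endothelial genes, 2 were higher in each region at 8 h, 2 were lower in the NAC and 1 in the PFC at that time, and 1 was lower in the AMY at 0 h. Neuron genes gave 2 of 11 lower in the AMY and 1 of 11 lower in the PFC at 0 h, and 1 of 10 lower in the NAC at 8 h. Of the striatal projection neuron genes 1 of 7 was lower at 0 h and 1 of 7 higher at 8 h in the NAC, with 1 of 6 lower at 0 h and 1 of 6 higher at 8 h in the PFC. Of the meninges and choroid plexus genes 3 of 5 were higher in the NAC at 8 h, 1 of 5 in the NAC at 0 h and 1 of 5 in the AMY at 8 h. The thalamus list also had 1 of 8 higher in the PFC at 0 h, Slc17a6 by 0.50, and 1 higher and 1 lower in the NAC at 8 h.

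Among control mice, Etnppl, a lyase of phosphoethanolamine found in astrocytes, was lower at 120 h than at 0 h by -1.02 in the AMY, -0.66 in the NAC and -1.03 in the PFC, and Gbp2, a guanylate-binding protein of the reactive list, was lower by -0.67 in the AMY and -1.10 in the PFC. In the liver, outside the brain regions, Agt had a median raw intensity of 1183 and Aldh1l1 of 2815, whereas Gfap, Dtna, Gpr37l1 and Acsbg1 were not kept by the detection filter.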
